A study of Mus musculus with 22 samples.

Results

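Ana/telophase cells with and without CTCF were compared, as they emerged from mitosis. They account for 4 of the 22 in situ Hi-C samples of the series, 2 collected without auxin (-auxin) and 2 with auxin (+auxin), chosen by the stage and treatment in the sample labels. All came from G1E-ER4, a subline of the GATA1-null proerythroblast line G1E of the mouse, in which both CTCF alleles carry an auxin-inducible degron fused to mCherry. Cells of both groups also carried the plant receptor OsTiR, which auxin needs to act, together with GFP fused to a mitotic degron, and were not induced to differentiate. They were arrested in prometaphase with 200 ng/ml nocodazole and released for 30 min by the sample labels, or 25 min by the protocol that accompanies them. Auxin was added during the arrest and kept after release in the +auxin group and left out in the -auxin group. Ana/telophase cells were sorted on loss of GFP and on a DNA content not yet divided, with the mCherry signal retained in the -auxin group and lost in the +auxin group. Prometaphase, early-G1 and mid-G1 samples, which serve here only as a frame (4, 4 and 6 samples with and without auxin), came from cells whose GFP lacked the mitotic degron, so the ana/telophase cells were a separately transduced line.

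CTCF is a zinc finger protein that binds DNA at an oriented motif and halts cohesin, the ring complex that extrudes loops of chromatin. Loops whose ends lie at CTCF sites, and the domain boundaries that such sites form, are lost when chromosomes condense and return after division. Loops between promoters and enhancers, which are cis-regulatory elements (CREs), also return, and many of them do not have CTCF at both ends. Hi-C ligates and sequences pieces of DNA that lie close together, so a loop appears as a spot of contacts between 2 anchors, and a boundary as a bin across which contacts are depleted.

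The replicates of each treatment were merged by the authors before loop and boundary strengths were measured, so in the tables used each loop and each boundary has 1 value for -auxin and 1 for +auxin ana/telophase cells. The replicate spread is therefore not known from these tables, contact maps of single replicates were not analysed here, and no difference between treatments was tested. Loop strength is the ratio of observed contacts to those expected from the local surroundings, averaged over the summit pixel and the pixels around it, so that 1 means no enrichment. Boundary strength, ΔIS, is the highest insulation score near a boundary minus the score at it, so that larger values mean stronger insulation. Changes are given as log2(+auxin / -auxin) of 1 of these quantities, and the SD beside a median change was taken over the medians of single chromosomes (20, or down to 10 for small classes), so it shows how even the change was along the genome and says nothing of the spread between cultures. In the merged ana/telophase maps, the +auxin map held slightly fewer valid contact pairs than the -auxin map. The number of contacts behind a single value is not given in the tables used.

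Loops anchored at CTCF were already weaker in CTCF-depleted cells at this first post-mitotic stage, and loops between CREs were not as a group. The 4837 structural loops, which join CTCF/cohesin sites with CREs at no more than 1 anchor, had a median strength of 1.62 without auxin (quartiles 1.34 and 2.04) and 1.15 with auxin (quartiles 0.987 and 1.36). Their median log2 change was -0.50 (SD 0.06), and 93.0% of them were weaker with auxin, beside 73.6% of all loops. The 3370 dual-function loops, with CREs as well as CTCF/cohesin at both anchors, stood at a median of 1.64 without and 1.36 with auxin, with a median change of -0.25 (SD 0.06). The 4642 CRE loops, which have CREs at both anchors and CTCF/cohesin at no more than 1, stood at 1.52 and 1.51, with a median change of -0.01 that did not exceed the SD of 0.02. For the 3521 loops outside these categories, called uncategorised here, the medians were 1.45 and 1.25 and the change -0.17 (SD 0.04). Over all 16370 loops the median change was -0.21 (SD 0.03). The order of the categories held on single chromosomes in so far as the medians of structural loops, from -0.62 to -0.42, lay below all those of CRE loops, from -0.06 to 0.03.

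**Figure D1:**
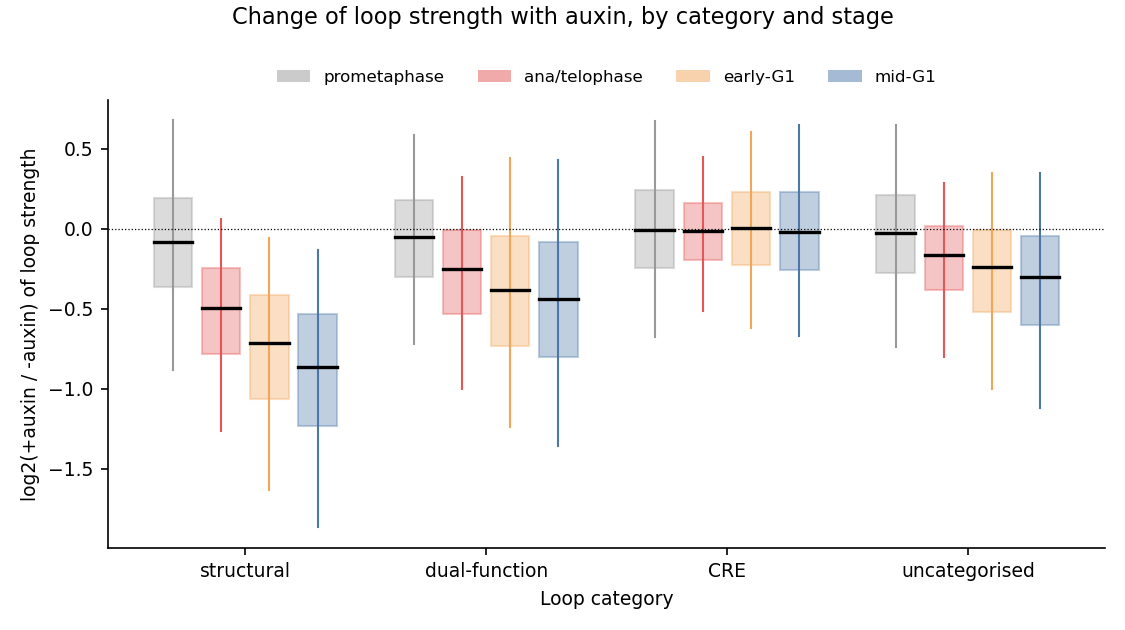
Change of loop strength with auxin, as log2(+auxin / -auxin) of the merged values, for the 4 loop categories at 4 stages. Boxes span the quartiles over loops, black lines are medians and whiskers reach from the 5th to the 95th percentile. In ana/telophase, the whole box of structural loops lies below 0 (quartiles -0.78 and -0.25), while that of CRE loops straddles it (-0.19 and 0.16).

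Few loops were clearly stronger with auxin in ana/telophase. A loop was counted as weaker or stronger where its strength differed by at least 1.5-fold. In ana/telophase, 3335 of 16370 loops (20.4%) were weaker and 145 (0.886%) stronger. The weaker ones comprised 2012 structural loops (41.6% of that category), 754 dual-function loops (22.4%), 410 uncategorised loops (11.6%) and 159 CRE loops (3.43%). Against the 20.4% of all loops, the share was thus higher among structural loops and lower among CRE loops. The stronger ones comprised 89 CRE loops (1.92% of that category), 27 dual-function, 26 uncategorised and 3 structural loops. In prometaphase, before release, 9.52% of loops were weaker and 6.46% stronger by the same measure, so single values of that stage scattered in both directions. In early-G1 the shares were 31.4% and 2.55%, and in mid-G1 36.7% and 2.83%.

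The distance from prometaphase was next compared between the treatments. In -auxin cells, the median strength of structural loops was 0.566 above its prometaphase level in ana/telophase, and in +auxin cells 0.154 above, which is 27.3% of the -auxin difference. The percentage was 56.6% for dual-function loops, 59.0% for uncategorised loops and 98.6% for CRE loops. CRE loops of both treatments had thus moved away from prometaphase by nearly the same amount (0.427 without and 0.421 with auxin). The 2 kinds of loops also differed in how far they had come. Without auxin, structural loops had covered 44.7% of the distance between the prometaphase and mid-G1 medians by ana/telophase, and CRE loops 82.3%. The median log2 change of structural loops in ana/telophase was 57.4% of their mid-G1 change, and that of dual-function loops 57.0%.

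Structural loops that are strong in G1 had the larger changes in ana/telophase. To avoid ranking loops by the values compared, each category was divided at the quartiles of strength in the -auxin mid-G1 map. The bottom quartile group of structural loops had ana/telophase medians of 1.22 without and 1.02 with auxin and a median log2 change of -0.26 (SD 0.05). In the top quartile group the medians were 2.38 and 1.33 and the change -0.85 (SD 0.08), and 76.2% of its 1209 loops were at least 1.5-fold weaker. Dual-function loops spanned changes from -0.01 (SD 0.06) in the bottom to -0.62 (SD 0.09) in the top quartile group. In CRE loops the change was 0.11 (SD 0.04) in the bottom group and -0.17 (SD 0.06) in the top group, which had medians of 2.07 and 1.85. Structural loops between the lower quartile and the median had an ana/telophase median of 1.51 without auxin and a change of -0.41 (SD 0.06), and all CRE loops a median of 1.52 and a change of -0.01. Loops were not matched on strength, and the part of strength in the difference between categories was not tested. Loops were included when called in at least 1 map. A loop that is weak without auxin can thus be there because another map showed it as strong. How far this applies was not tested.

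The change was also compared between loop sizes. Structural loops of up to 200 kb had medians of 1.44 without and 1.08 with auxin in ana/telophase (2029 loops), with a log2 change of -0.42 (SD 0.07). Those over 200 to 500 kb stood at 1.83 and 1.22 (1804 loops), with a change of -0.59 (SD 0.06), and those over 500 kb at 1.68 and 1.18 (1004 loops), with a change of -0.53 (SD 0.09). The shortest class differed from both longer ones by more than the SDs concerned. With the prometaphase change subtracted, the shortest class changed by -0.35 and the longest by -0.43, which is within the SD of the latter. In finer bins, structural loops of up to 100 kb had a median of 0.960 with auxin, below the level of 1 that means no enrichment, against 1.22 without. Dual-function loops changed by -0.26 (SD 0.07) in the shortest, -0.29 (SD 0.09) in the middle and -0.17 (SD 0.10) in the longest class. With 10 kb summits only, structural loops changed by -0.44 in the shortest, -0.69 in the middle and -0.79 in the longest class. Dual-function loops then changed by -0.27, -0.38 and -0.30. With these summits the longest structural class changed most, and the longest dual-function class no longer changed least. With the change in prometaphase subtracted, dual-function loops changed by -0.19 in the middle and -0.10 in the longest class. For dual-function loops of over 1200 kb, of which there were 134, the medians were 1.66 without and 1.54 with auxin. CRE loops had changes of -0.02 (SD 0.03), 0.02 (SD 0.07) and -0.04 (SD 0.06) in these classes, each within its SD, but with 10 kb summits only, the longest class changed by -0.09, beyond its SD.

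**Figure D2:**
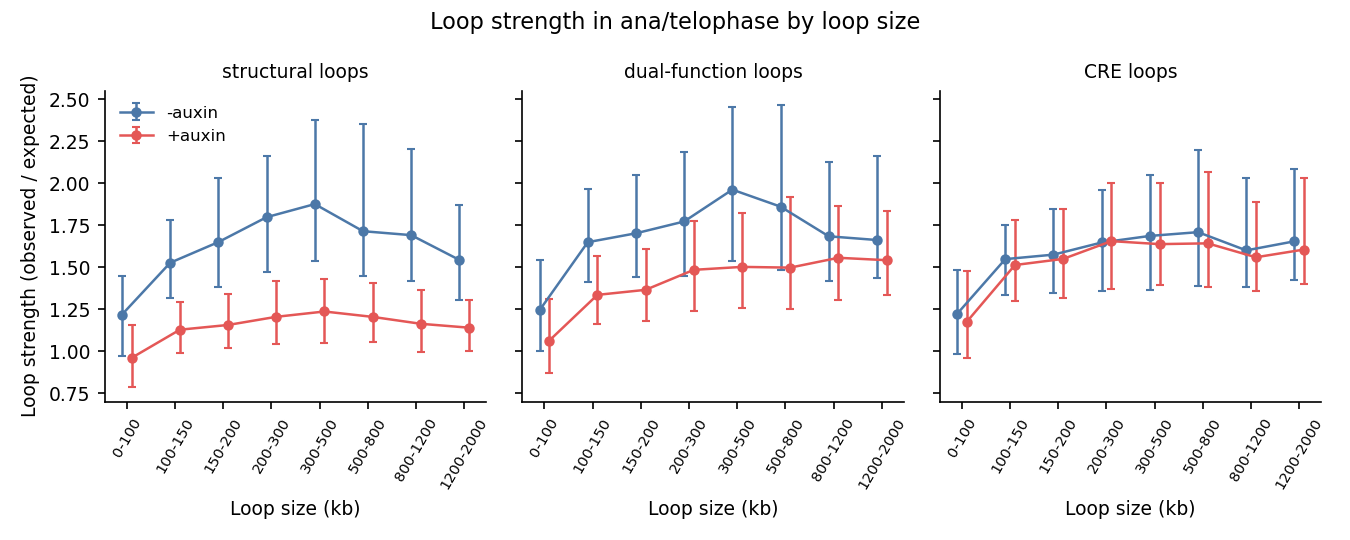
Median loop strength (observed over expected contacts) in the merged ana/telophase maps against loop size in kb, without auxin in blue and with auxin in red. Bars span the quartiles over loops. The gap between treatments is widest for structural loops of 300 to 500 kb (1.88 against 1.24), and the medians of CRE loops lie close together in every bin.

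The authors' own loop calls gave a matching order of the categories. By ana/telophase, 2901 loops had been called in -auxin and 1313 in +auxin cells, a ratio of 0.453. For structural loops the numbers were 717 and 34 (ratio 0.0474), for dual-function loops 945 and 365 (0.386), for uncategorised loops 301 and 156 (0.518) and for CRE loops 938 and 758 (0.808). Calls depend on depth and thresholds, and in each category the loops called in both treatments were the minority of those called without auxin. Of the structural loops called by ana/telophase without auxin, 14 were also called by then with auxin (1.95% of the 717 and 41.2% of the 34), 70 were called later and 633 (88.3%) at no stage. Of the CRE loops, 296 were called by ana/telophase in both (31.6% of the 938 and 39.1% of the 758). Of those called with auxin, 326 were called at no stage without it. The strengths were less divided than the calls. CRE loops called by ana/telophase in -auxin cells and at no stage in +auxin cells, 377 in all, had a median log2 change of -0.18, and the 326 of the opposite kind 0.23. For the 633 structural loops the median change was -0.85. As these groups were formed by calls on the same maps, their changes are a description of the calls.

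The 12-base core of the CTCF consensus motif was then searched on both strands of the mm9 genome, as a mark of anchors that does not come from contact maps. A match lay in 4.71% of all 10 kb bins of the genome. In windows of 10 kb centred on loop anchors it lay in 26.7% of structural, 22.0% of dual-function, 11.03% of uncategorised and 8.25% of CRE loop anchors. The orientation was uneven in structural loops. Of their upstream anchors with a match, 79.8% held only forward matches and 16.3% only reverse ones, and of their downstream anchors with a match, 77.6% held only reverse and 17.5% only forward ones. In dual-function loops, 72.0% of such upstream anchors held only forward and 72.7% of such downstream anchors only reverse matches. These 2 shares were 70.5% and 74.0% in uncategorised loops and 53.0% and 67.8% in CRE loops, so the unevenness was not particular to structural loops. A strict core of this length misses many bound sites, so an anchor with no match is not an anchor without CTCF.

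The change in ana/telophase was then compared between motif classes, first of structural loops. Of these, 267 had matches in convergent orientation, forward upstream and reverse downstream. Their median strengths were 1.79 without and 1.19 with auxin, with a median log2 change of -0.60 (SD 0.17). The 121 structural loops with matches at both anchors in other orientations had medians of 1.55 and 1.14 and a change of -0.46 (SD 0.16). Structural loops with a match at 1 anchor changed by -0.54 (SD 0.07, 1806 loops) and those with none by -0.46 (SD 0.05, 2643 loops). The difference between convergent loops and loops with no match was smaller than the SD of the former and larger than that of the latter, and 50.2% and 38.4% of these loops were at least 1.5-fold weaker. Dual-function loops with convergent matches (107 loops) had medians of 1.85 and 1.32 and a change of -0.46 (SD 0.14), against -0.21 (SD 0.06) for the 2059 with no match. In CRE loops the change was -0.07 (SD 0.04) with a match at 1 anchor and -0.0025 (SD 0.02) with none.

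Matches of the motif are shown for the 2 convergent structural loops that ranked highest by loss of strength in ana/telophase under the rule for named loops, at ranks 20 and 59. The first, of 640 kb on chromosome 2, had strengths, from prometaphase to mid-G1, of 1.03, 3.08, 3.24 and 5.67 without auxin and of 0.983, 0.840, 0.989 and 0.926 with auxin. Its downstream anchor lies in Lrp2, the gene of an endocytic receptor, and the matched site is intronic. The second, of 340 kb on chromosome 8, had strengths of 1.17, 2.20, 3.26 and 3.63 without auxin and 1.74, 0.735, 1.10 and 1.71 with auxin. It joins Grk1, the rhodopsin kinase gene, with the anchor that holds the transcription start of Cdc16, a subunit of the anaphase-promoting complex. The sequences are given 5′ to 3′ on the strand of the match, with the matched core in capitals. The upstream anchor on chromosome 8 held 2 matches on that strand, of which the one nearest its centre is given, and coordinates are those of mm9.
Chromosome 2 upstream anchor, forward strand, chr2:68622921-68622980, outside protein-coding genes: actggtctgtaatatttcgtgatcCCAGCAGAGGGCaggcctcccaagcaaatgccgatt
Chromosome 2 downstream anchor, reverse strand, chr2:69266367-69266426, intron of Lrp2: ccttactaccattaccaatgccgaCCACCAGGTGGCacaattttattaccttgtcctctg
Chromosome 8 upstream anchor, forward strand, chr8:13413349-13413408, intron of Grk1: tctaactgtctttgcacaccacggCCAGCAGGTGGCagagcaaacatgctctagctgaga
Chromosome 8 downstream anchor, reverse strand, chr8:13753848-13753907, outside protein-coding genes: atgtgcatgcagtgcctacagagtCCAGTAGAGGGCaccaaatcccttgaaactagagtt

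Loops were also divided by how many of their summit anchors hold the transcription start of a protein-coding gene. Structural loops without a transcription start at either anchor (2991 loops) changed by a median log2 of -0.55 (SD 0.06) in ana/telophase, those with 1 (1589 loops) by -0.43 (SD 0.06) and those with 2 (257 loops) by -0.37 (SD 0.12). Dual-function loops showed the widest span, from -0.42 (SD 0.07, 963 loops) with no such anchor through -0.28 (SD 0.07, 1346 loops) to -0.09 (SD 0.06, 1061 loops) with 2. CRE loops went from -0.10 (SD 0.06, 1041 loops) through -0.02 (SD 0.03, 1795 loops) to 0.04 (SD 0.04, 1806 loops). In all 3 categories the change was thus less negative the more transcription starts the anchors held. The -auxin medians of structural loops (1.69, 1.55 and 1.45) and dual-function loops (1.76, 1.67 and 1.53) were also lower along this order, whereas those of CRE loops did not (1.52, 1.53 and 1.52). The part of loop strength in this pattern was not tested.

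CRE loops were compared by the structural loops around them, from anchor positions alone. A CRE loop was called crossed where a structural loop had 1 anchor between the CRE anchors and the other beyond them, and inside where, uncrossed, it lay within a structural loop. The 2227 crossed CRE loops had a median strength in ana/telophase of 1.53 without and 1.57 with auxin, and a median log2 change of 0.05 (SD 0.04). The 931 inside ones had medians of 1.47 and 1.35 and a change of -0.12 (SD 0.05). Of the inside loops, 68.9% were weaker with auxin, beside 52.0% of all CRE loops and 73.6% of all loops. The share was 42.3% of crossed loops and 56.1% of those that were neither. The 1484 that were neither stood at 1.54 and 1.51, with a change of -0.04 (SD 0.03). The order of the classes was the same within the 2 shorter size classes, and loops over 500 kb held only 14 inside ones. Up to 200 kb, crossed loops changed by 0.10 (SD 0.06, 719 loops), inside ones by -0.11 (SD 0.04, 788 loops) and the others by -0.04 (SD 0.05, 763 loops). Over 200 to 500 kb the changes were 0.06 (SD 0.07), -0.21 (SD 0.14) and -0.01 (SD 0.09). Over 500 kb, crossed loops changed by -0.02 (SD 0.07).

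**Figure D3:**
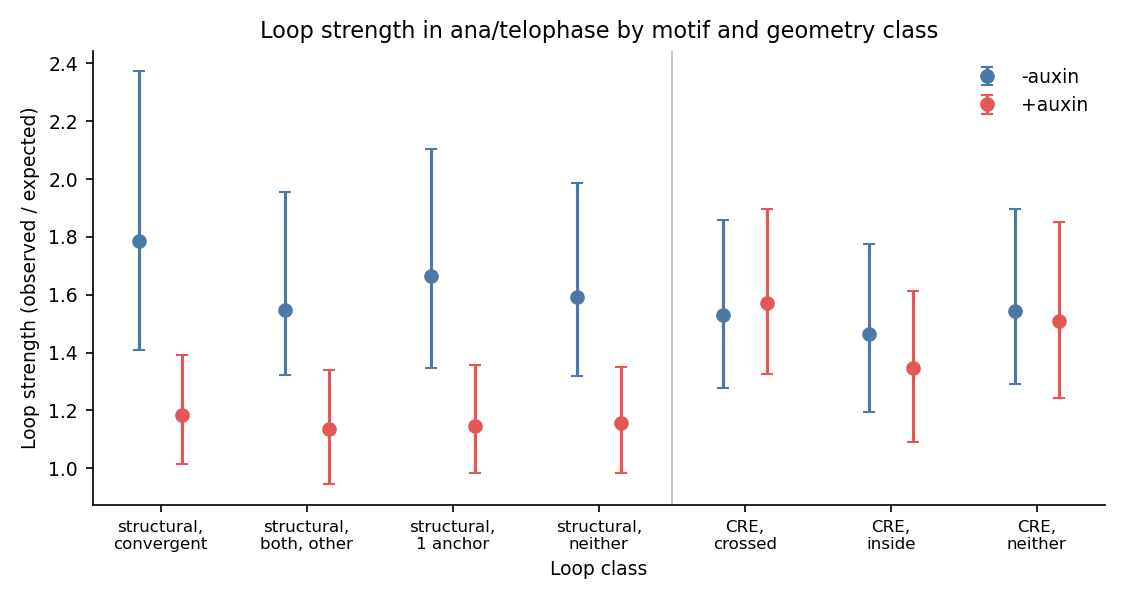
Median loop strength (observed over expected contacts) in the merged ana/telophase maps without (blue) and with auxin (red), for structural loops by CTCF motif at their anchors and for CRE loops by their position relative to structural loops. Bars span the quartiles over loops. Structural loops of every motif class are lower with auxin, and of the CRE classes, crossed loops have the higher median with auxin (1.57 against 1.53) and inside loops the lower one (1.35 against 1.47).

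Single loops were named by rank among those with a 10 kb summit, a set minimum of strength in 1 of the ana/telophase maps, no map above 8, and a change of the same sign in ana/telophase, early-G1 and mid-G1. Of 1895 structural loops past the first criteria, 1847 had the same sign throughout, of which 1838 were weaker and 9 stronger with auxin. For dual-function loops 1080 were weaker and 120 stronger, and for CRE loops 518 and 479. The stages share no samples within a treatment, but the rule asks for a like sign, so the later values of the named loops are a description.

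The structural loop with the most negative change, of 1020 kb on chromosome 5, joins the transcription start of Pcdh7, a protocadherin gene (58100001 to 58110000), with a bin outside protein-coding genes (59120001 to 59130000). At the 4 stages in turn it had strengths of 1.10, 3.29, 4.19 and 7.22 without auxin and 1.11, 0.387, 0.331 and 1.71 with it. The log2 change in ana/telophase was -3.09, and the +auxin values in ana/telophase and early-G1 were below that of prometaphase. A loop of 740 kb on chromosome 2, between the olfactory receptor gene Olfr1009 (85560001 to 85570000) and 86300001 to 86310000, stood at 3.28 without and 0.515 with auxin in ana/telophase, after 0.547 and 1.06 in prometaphase. The next were a loop of 500 kb on chromosome X (2.33 and 0.381 in ana/telophase) with no protein-coding gene at its anchors, and 1 of 1030 kb on chromosome 16 (2.24 and 0.426) that starts in Col8a1, a collagen gene. These 4 loops had the most negative changes among the structural loops that passed the naming rule. How many contacts stand behind each value is unknown. Without auxin, the loop on chromosome 2 was first called in early-G1 and the others in mid-G1. With auxin, none of them was called at any stage.

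Among dual-function loops, the pair with the most negative changes shares the anchor with the transcription start of Calcrl, the calcitonin receptor-like receptor (chromosome 2, 84260001 to 84270000). The loop of 420 kb had ana/telophase strengths of 4.98 without and 1.24 with auxin (log2 change -2.01), and that of 400 kb strengths of 3.85 and 0.963 (-2.00). Their upstream anchors lie 20 kb apart, so the pair is not independent. In mid-G1 the -auxin values reached 7.67 and 4.39, and the +auxin values were 1.64 and 1.95. A loop of 260 kb on chromosome 16 between Cpn2, a carboxypeptidase subunit gene, and Tmem44 stood at 2.73 and 0.813 in ana/telophase.

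CRE loops with large negative changes were rarer, and the 3 leading ones had -auxin strengths in ana/telophase, though not at the later stages, above those of the structural loops named before. A loop of 600 kb on chromosome 10, between bins outside protein-coding genes (21120001 to 21130000 and 21720001 to 21730000), had strengths of 1.31, 4.65, 4.59 and 5.73 from prometaphase to mid-G1 without auxin and 1.20, 1.39, 1.96 and 1.73 with auxin, an ana/telophase log2 change of -1.74. The loop of 560 kb on chromosome 6 that joins Asns, the asparagine synthetase gene, with Rpa3, a subunit of replication protein A, stood at 3.49 without and 1.37 with auxin in ana/telophase. By mid-G1 the pair of values was 2.19 and 1.78, so the treatments lay closest at that late stage. A loop of 1050 kb that starts 20 kb from the Asns anchor and ends in Ica1 had values of 3.73 and 1.27.

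The 4 named CRE loops that were stronger with auxin were 80 to 130 kb long, and each had an ana/telophase strength below 1 without auxin, which a ranking by ratio favours. The CRE loop of 110 kb on chromosome 1 that joins the transcription starts of Srgap2 and Fam72a (133420001 to 133430000) with that of Ctse, the cathepsin E gene (133530001 to 133540000), had ana/telophase strengths of 0.974 without and 2.44 with auxin (log2 change 1.32). A loop from the same anchor to a bin 20 kb further in Ctse had 0.884 and 1.99. In early-G1 the treatments differed by far less for this pair, with changes of 0.24 and 0.12, and in mid-G1 by 1.24 and 1.19.

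At the Gata1 locus on chromosome X, the CRE loop of 100 kb between a transcription start of Gata1 (7540001 to 7550000), an erythroid transcription factor whose function the parental line lacks, and Suv39h1, a histone methyltransferase gene (7640001 to 7650000), had strengths of 1.21 and 1.11 in prometaphase without and with auxin. In ana/telophase the values were 0.807 and 1.87 (log2 change 1.22), in early-G1 0.644 and 1.85 and in mid-G1 0.644 and 1.96. The +auxin value was therefore at its later level by the first post-mitotic stage, and the -auxin values were below 1 at all 3 stages after release. The loop of 80 kb between Khdrbs1, an RNA-binding protein gene, and Ptp4a2, a phosphatase gene, on chromosome 4 had 0.908 and 1.85 in ana/telophase. All 4 of these CRE loops were crossed by a structural loop, as were 2227 of the 4642 CRE loops in all, and 2 of the 4 share an anchor.

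The 3 named dual-function loops that were stronger with auxin were longer. That of 240 kb on chromosome 15, from Hoxc6 to the bin with the transcription starts of Cbx5, heterochromatin protein 1 alpha, and Hnrnpa1, an RNA-binding protein, stood at 1.98 without and 3.601 with auxin in ana/telophase, after 2.65 and 2.85 in prometaphase. Its strength was lower at each later stage in both treatments, with 1.56 in early-G1 and 1.34 in mid-G1 without auxin and 2.81 and 2.39 with auxin. A loop of 310 kb on chromosome 8 from E2f4, a cell cycle transcription factor, to Fam65a had 1.19 and 2.11, and 1 of 900 kb on chromosome 6 from Igf2bp3, an RNA-binding protein, to Mpp6 had 1.92 and 3.26.

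**Figure D4:**
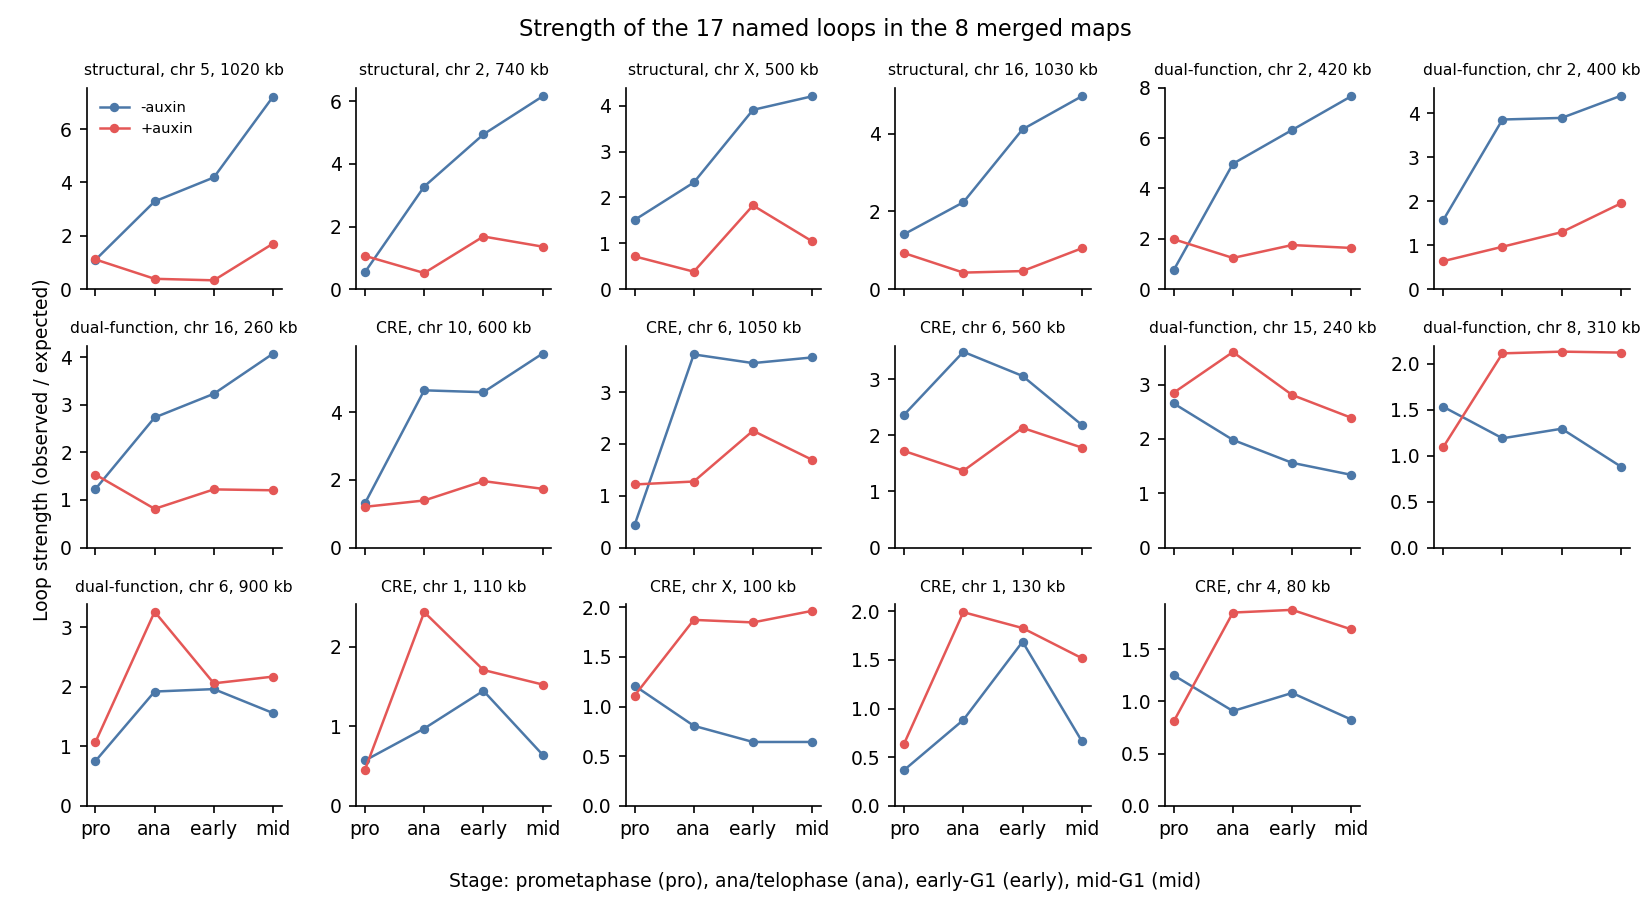
Strength (observed over expected contacts) of the 17 named loops in the 8 merged maps, without auxin in blue and with auxin in red, at prometaphase (pro), ana/telophase (ana), early-G1 (early) and mid-G1 (mid). The first 10 panels are loops weaker and the last 7 loops stronger with auxin, and the vertical axes start at 0 and differ between panels. The distance between the lines in ana/telophase is 3.29 against 0.387 in the first panel and 0.974 against 2.44 in the panel of the 110 kb CRE loop on chromosome 1.

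Loops at promoters of a list of 25 erythroid and proliferation genes were counted next. Of these, 24 were found in the annotation under the listed symbol (Spi1 was not), and 20 had at least 1 loop with a transcription start in a summit anchor, 65 loops in all. They comprised 30 dual-function, 27 CRE, 7 structural and 1 uncategorised loop. In ana/telophase 8 of the 65 were at least 1.5-fold weaker and 6 at least 1.5-fold stronger with auxin. The shares weaker and stronger were 20.4% and 0.886% over all loops, 22.4% and 0.801% over dual-function and 3.43% and 1.92% over CRE loops. The median log2 change of the 65 was -0.06, and their values ran from -1.08 to 1.22. It was -0.21 over all loops, -0.25 over dual-function and -0.01 over CRE loops. The gene list was chosen with earlier results of these data known, and the part of category in these shares was not tested. The loops of 1 gene share an anchor and are not independent.

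The 2 strongest of these loops by mean over the 8 maps belonged to Myc, the proliferation factor. The dual-function loop from Myc to a bin 1670 kb downstream on chromosome 15 had ana/telophase strengths of 5.23 without and 2.67 with auxin (log2 change -0.97), and that to a bin at 1750 kb 3.81 and 2.75. In mid-G1 without auxin their strengths were 4.21 and 4.38. At Lmo2, a partner of GATA1 and TAL1, loops of opposite direction met in 1 bin (chromosome 2, 103810001 to 103820000), and this locus was chosen after its values were seen. The dual-function loop of 100 kb to a bin outside protein-coding genes had 2.71 without and 1.29 with auxin, whereas the CRE loop of 180 kb to the Caprin1 promoter had 1.96 and 2.40.

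Domain boundaries were examined with the same comparison of ana/telophase maps. Over all 6376 boundaries, ΔIS had a median of 0.277 without and 0.198 with auxin, at a median log2 change of -0.35 (SD 0.05). The change was close to that in early-G1 (-0.34, SD 0.06) and smaller in size than that in mid-G1 (-0.48, SD 0.06). Median ΔIS stood above its prometaphase level by 0.183 without and 0.111 with auxin, the latter being 60.7% of the former. In ana/telophase, 2288 boundaries (35.9%) were at least 1.5-fold weaker and 703 (11%) stronger with auxin. In prometaphase, where ΔIS was low throughout (medians of 0.094 and 0.087), the shares were 29.3% and 22.4%. In early-G1 they were 37% and 11.1%, and in mid-G1 44.5% and 8.64%.

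The authors' boundary clusters were formed on these same maps, so their differences are given as a description. Cluster1, of 1300 boundaries, had an ana/telophase median ΔIS of 0.188 without and 0.092 with auxin and a median log2 change of -1.05 (SD 0.18). Its +auxin median had moved from prometaphase by 0.0256, 23.0% of the -auxin difference of 0.111. In cluster2, of 2036 boundaries, the medians were 0.479 and 0.305 and the change -0.60 (SD 0.05), and the difference from prometaphase with auxin was 56.3% of that without. The change of cluster2 was the same in early-G1 (-0.60, SD 0.04), although ΔIS itself was higher there (0.774 and 0.480). Cluster3, of 1731 boundaries, had medians of 0.333 and 0.323 and a change of -0.09 (SD 0.04), with 60.5% of boundaries weaker with auxin, beside 71.1% of all boundaries. Here the difference from prometaphase with auxin was 97.4% of that without. The 590 boundaries of cluster4 stood at 0.093 and 0.128, with a change of 0.48 (SD 0.21), and the 719 of cluster5 at 0.062 and 0.071, with a change of 0.22 (SD 0.20). With a pseudocount of 0.1, the changes were -0.58 in cluster1, 0.26 in cluster4 and 0.095 in cluster5, and with the prometaphase change subtracted that of cluster3 was -0.016. The authors regarded most cluster5 boundaries as spurious and did not analyse them further. ΔIS in cluster5 was below the prometaphase medians of 0.093 and 0.086 of the same boundaries.

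**Figure D5:**
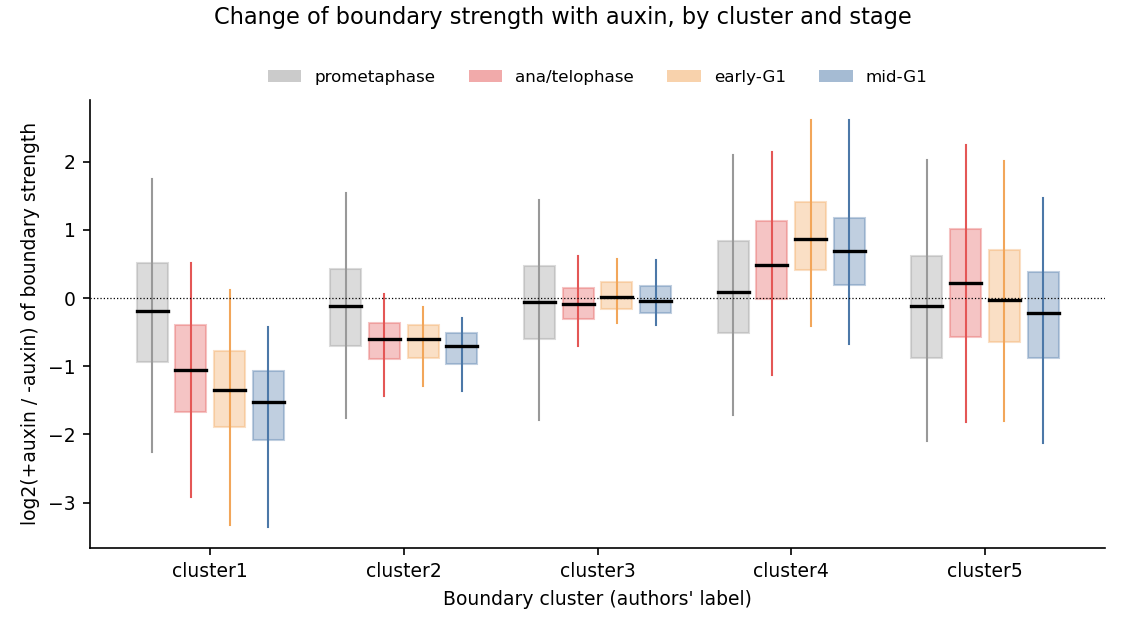
Change of boundary strength with auxin, as log2(+auxin / -auxin) of ΔIS in the merged maps, for the authors' 5 boundary clusters at 4 stages. Boxes span the quartiles over boundaries, black lines are medians and whiskers reach from the 5th to the 95th percentile. In ana/telophase, the boxes of cluster1 (quartiles -1.67 and -0.39) and cluster2 (-0.90 and -0.36) lie below 0, and cluster2 is already at its early-G1 position.

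Boundaries next to anchors of CTCF loops carried the larger changes. The 2460 boundaries within 20 kb of a structural or dual-function loop anchor had an ana/telophase median ΔIS of 0.479 without and 0.308 with auxin and a median log2 change of -0.61 (SD 0.08), and 52.0% of them were at least 1.5-fold weaker, beside 35.9% of all boundaries. The 441 boundaries at CRE loop anchors only stood at 0.386 and 0.330, with a change of -0.20 (SD 0.10), and 18.8% were weaker by that measure. The 3224 boundaries away from anchors were weak in both treatments (0.127 and 0.114), with a change of -0.15 (SD 0.07), and 26.5% of them were at least 1.5-fold weaker and 18.2% stronger. Over all boundaries the stronger share was 11%, at structural or dual-function anchors 2.48% and at CRE loop anchors only 8.84%. At structural or dual-function anchors the change was -0.44 with the prometaphase change subtracted and -0.48 with a pseudocount of 0.1, each moved beyond the SD. With the prometaphase change subtracted, the change at CRE loop anchors was -0.060, within the SD. With the distance to an anchor set at 10 or 40 kb, the change away from anchors was -0.22 or -0.072. In that class it was -0.083 with a pseudocount of 0.1 and -0.094 with the prometaphase change subtracted. A further 251 boundaries lay at uncategorised loop anchors only. Of the clusters, 62.2% of cluster2, 45.5% of cluster1, 31.4% of cluster3, 9.66% of cluster4 and 0.139% of cluster5 boundaries lay at structural or dual-function anchors.

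Motif matches and transcription starts in the boundary bin were set beside its strength and its change. Boundaries with both (110) had medians of 0.474 without and 0.325 with auxin in ana/telophase and a log2 change of -0.58 (SD 0.17). With a motif match alone (475) they had 0.430 and 0.272 and -0.53 (SD 0.18), with a transcription start alone (834) 0.410 and 0.295 and -0.41 (SD 0.12), and with neither (4957) 0.239 and 0.173 and -0.31 (SD 0.06). A match lay in 12.9% of cluster2, 10.4% of cluster1, 7.91% of cluster3, 4.58% of cluster4 and 3.34% of cluster5 bins, beside 4.71% of all bins of the genome. Transcription starts lay in 19.1% of cluster2, 12.7% of cluster1, 17.2% of cluster3, 9.83% of cluster4 and 4.73% of cluster5 bins, beside 9.68% of all bins.

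Single boundaries were named where ΔIS reached 0.4 in 1 ana/telophase map and the change had the same sign at all 3 post-mitotic stages, which held for 1774 weaker and 203 stronger boundaries. The most negative change was at a cluster1 boundary in Pde4d, a phosphodiesterase gene, on chromosome 13 (110550001 to 110560000, over an exon). Its ΔIS was 0.457 without and 0.00621 with auxin in ana/telophase, 0.912 and 0.0901 in early-G1 and 0.963 and 0.0665 in mid-G1, after 0.0759 and 0.0881 in prometaphase. The boundary at the transcription start of Rab15, a small GTPase gene, on chromosome 12 (77920001 to 77930000) stood at 0.739 and 0.0313, and 1 in Ralgps2 on chromosome 1 (158830001 to 158840000) at 0.420 and 0.0148. With auxin, all 3 were in ana/telophase below their prometaphase levels, and all 3 lay at structural or dual-function loop anchors, as did 2460 of all 6376 boundaries.

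The 3 leading boundaries in the other direction belonged to cluster4. That in an intron of Lpcat3, a phospholipid acyltransferase gene, on chromosome 6 (124630001 to 124640000) had an ana/telophase ΔIS of 0.113 without and 0.434 with auxin, followed by 0.246 and 0.770 in early-G1 and 0.308 and 0.799 in mid-G1. A boundary outside protein-coding genes on chromosome 8 (77700001 to 77710000) had 0.157 and 0.408, and 1 in Ubap2l on chromosome 3 (89810001 to 89820000) 0.215 and 0.491. At all 3 the +auxin value was higher in early-G1 than in ana/telophase. The Lpcat3 boundary also lay at a structural or dual-function loop anchor. The Ubap2l boundary lay at CRE loop anchors only and that on chromosome 8 away from anchors.

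The ana/telophase differences were set beside those of the later maps, which come from other samples. Of the 3335 loops at least 1.5-fold weaker with auxin in ana/telophase, 3277 (98.3%) were also weaker in both early-G1 and mid-G1, whereas of all 16370 loops, 73.9% had the same direction at all 3 stages. Of the 145 stronger loops, 105 (72.4%) were stronger at both later stages. In prometaphase, 59.7% and 58.6% of these loops had the like direction, beside 54.7% of all loops. The shares of all loops with a like direction pool both directions. Of all loops, 74.7% were weaker in early-G1 and 77.1% in mid-G1, so stronger loops were the minority at both stages. Over CRE loops, 74 of the 89 stronger ones kept their direction (83.1%), and over structural loops none of the 3 did. Of the 2288 weaker boundaries, 1924 (84.1%) were weaker at both later stages. Of the 703 stronger boundaries, 265 (37.7%) were stronger at both. Of all boundaries, 65.0% had the same direction at all 3 stages, a share that also pools both directions. Across all 16370 loops, the ana/telophase change had a Pearson correlation of 0.74 with the early-G1 change and 0.75 with the mid-G1 change, and 0.11 with the prometaphase change. Across all 6376 boundaries these correlations were 0.49, 0.48 and 0.07. They are across loops or boundaries that neighbour and overlap each other, which are not independent replicates.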

How the data were processed

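Samples were grouped by their labels. Per the methods of the study, the authors aligned reads to mm9 with bowtie2 in HiC-Pro, removed duplicates, merged replicates and called boundaries with rGMAP and loops with a modified HICCUPS. Loop strength as deposited is the observed/donut-expected ratio, a mean over the summit and its neighbouring pixels, and boundary strength as deposited is a non-negative signal, ΔIS. Categories, calls and clusters are the authors' labels. The tables used hold merged values, and contact maps of single replicates were not analysed here, so no p-value was computed.

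From all 16 value columns, log2(+auxin / -auxin) was computed without a pseudocount. Outside ana/telophase, 3 loops and 1 boundary had a 0 and no ratio there. Chromosomes with fewer than 5 items were left out of the SD. Boundary coordinates were read as starts of 10 kb bins. Gene positions were read from the protein-coding models of GENCODE vM1 on NCBIM37, which is mm9. The convergent loops shown come further down the ranking that named loops, since none of the 4 named structural loops had convergent matches. Splits by transcription start and mid-G1 strength were added after values had been seen. One loop that the rule selects from the gene list is not reported here, and the 17 loops named by rank are all given. The members and lists were chosen with earlier results of these data known. Alternatives covered pseudocount, means, strength, summit width, windows, distances, chromosome 3 and the prometaphase change. Medians and the motif search were tested on simulated data, and the loop geometry was checked pair by pair on a sample of loops, with Python 3.11.15, numpy 2.4.6, pandas 2.3.3 and matplotlib 3.10.9.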

Additional observations from a re-analysis of the deposited data

Results flagged for a closer look

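Cluster5 boundaries had a median log2 change of ΔIS of 0.22 in ana/telophase and of -0.21 in mid-G1, opposite ways at 2 stages and each beyond its SD over chromosomes (0.20 and 0.21). The difference between the stages was not tested, and the authors set this cluster aside as mostly spurious boundaries. In early-G1 the change was -0.02 (SD 0.23). Median ΔIS was between 0.058 and 0.093 in all 8 maps of these boundaries, so the ratios are of low values. The ana/telophase change was 0.095 with a pseudocount of 0.1 and 0.084 among boundaries with a mean ΔIS of at least 0.2, both within the SD over chromosomes.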

How the results depend on the processing

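No paired analysis was possible because the tables used hold values merged over the replicates of each treatment, and for the same reason no replicate was left out. Contact maps of single replicates were not analysed here. In 151 recomputations of 33 results, no change beyond its SD over chromosomes turned direction. Of the changes within it, that of CRE loops went from -0.01 to 0.15 with the median of uncategorised loops subtracted, and that of CRE loops over 200 to 500 kb from 0.02 to -0.0046 with 10 kb summits. Of the 107 for loop and boundary classes, 87 moved by less than the SD over chromosomes, and 10 of the 20 that moved more had the prometaphase change subtracted. The median log2 change of structural loops in ana/telophase was -0.57 as a ratio of means and -0.57 with 10 kb summits, -0.41 with the prometaphase change subtracted and -0.33 with the median of uncategorised loops subtracted. That last subtraction also brought dual-function loops to -0.086. For all boundaries the change was -0.23 with a pseudocount of 0.1, -0.42 as a ratio of means, -0.42 with a mean ΔIS of at least 0.2 and -0.26 with the prometaphase change subtracted. At a 2-fold threshold, 874 loops were weaker and 11 stronger, and 1228 boundaries were weaker and 434 stronger. With a pseudocount of 0.1, 1465 boundaries were weaker and 260 stronger at 1.5-fold, and with a mean ΔIS of at least 0.2, 124 were stronger. The contacts behind single values are unknown, so the precision of a single loop or boundary is not known. The +auxin and -auxin cells differed also in mCherry retention at sorting, which cannot be told apart from the treatment.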
